A study of Mus musculus with 46 samples.

Results

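The miR-23, miR-27 and miR-24 miRNAs of the mouse were followed in heart, liver and brain tissue that was left to decay. The 5 members, mmu-miR-23a-3p, mmu-miR-27a-3p, mmu-miR-23b-3p, mmu-miR-27b-3p and mmu-miR-24-3p (written below without mmu), were taken by name from the table of 1881 miRNAs. The rule used no values, but earlier results of these data were known. All organs came from male C57BL6 mice of an Il1a knock-out strain, so that every group shared this deletion, and the age of the mice was not given. Each organ was divided into parts, and a part was kept either cooled at 4 °C or at room temperature (RT), and RNA was isolated after 0, 1, 3, 6, 12, 24, 48 or 96 h. The groups were heart at 4 °C (7 arrays, RIN values of 8.1 to 8.8), heart at RT (8 arrays, 2.2 to 9.0), liver at 4 °C (6 arrays, 3.4 to 9.1), liver at RT (8 arrays, 2.3 to 7.1), brain at 4 °C (8 arrays, 7.3 to 8.7) and brain at RT (8 arrays, 3.3 to 8.7). The RNA integrity number (RIN) is high for intact and low for degraded total RNA. Each group was 1 slide with 1 array per time point, so that within a tissue storage temperature, slide and animal cannot be told apart. Heart, liver and brain kept at the same temperature came from a single animal, and p-values measure the spread between parts of the same organs.

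Members of these families are cut from 2 long primary transcripts that arose from a common ancestor. Drosha releases hairpins from the transcript in the nucleus, Dicer cuts each hairpin in the cytoplasm, and 1 arm is loaded into an Argonaute protein, which finds target mRNAs through the seed at bases 2 to 8. The miR-23a transcript carries the hairpins of miR-23a, miR-27a and miR-24-2, and the miR-23b transcript those of miR-23b, miR-27b and miR-24-1. These miRNAs are known for roles in blood vessel growth, in heart muscle growth and in lipid metabolism.

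The mature sequences of 4 members are shown because they set how far family members and transcripts can be told apart. They are from RefSeq (GRCm38.p6), 5′ to 3′, with the seed in capitals:
miR-23a-3p: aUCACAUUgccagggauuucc
miR-27a-3p: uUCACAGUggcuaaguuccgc
miR-27b-3p: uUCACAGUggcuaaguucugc
miR-24-3p: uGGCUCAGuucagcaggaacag
miR-23a-3p lies at chr8:84208563-84208583, miR-27a-3p at chr8:84208727-84208747 and miR-27b-3p at chr13:63300760-63300780, all on the plus strand. miR-27a-3p and miR-27b-3p share their seed and are identical at 20 of 21 positions, with the substitution C19U counted from the 5′ end of miR-27a-3p. miR-24-3p is made with the same sequence from chr8:84208875-84208896 and from chr13:63301251-63301272, so that its signal cannot be assigned to either transcript. The hairpins of the first transcript span 404 bases of chromosome 8, and those of the other span 792 bases of chromosome 13 within the protein-coding gene Aopep.

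The opposite arms of the miR-24 hairpins do differ between the transcripts. Both hairpins are shown with their mature arms in capitals, the 5p arm first and the shared 3p arm after it:
Mir24-2 (chr8:84208815-84208921): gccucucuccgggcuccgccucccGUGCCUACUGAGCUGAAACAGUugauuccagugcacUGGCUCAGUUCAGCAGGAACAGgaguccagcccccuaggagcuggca
Mir24-1 (chr13:63301208-63301275): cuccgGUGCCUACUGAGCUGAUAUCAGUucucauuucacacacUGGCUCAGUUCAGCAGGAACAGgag
Hence miR-24-2-5p, of 22 bases, is a product of the chromosome 8 transcript and miR-24-1-5p, of 23 bases, one of the chromosome 13 transcript. They serve below as mature products of the 2 transcripts other than the members.

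Levels are log2 values after variance stabilizing normalization (VSN), which rescales arrays to each other and tempers the spread of dim signals. All 5 members were detected on 45 of 45 arrays and passed the filter on detection, as did 815 miRNAs in all. Each member was measured by 2 probes on 30 spots, and 0 spots were saturated. The arrays detected 268 to 798 miRNAs, with a summed signal of 153088 to 541770 units. Labels were checked on tissue markers: on arrays of RIN over 6, the cardiac muscle miRNA miR-1a-3p averaged 14.50 in heart and was detected on 0 of 6 liver arrays, the hepatocyte miRNA miR-122-5p averaged 14.52 in liver, and the neuronal miR-124-3p averaged 13.48 in brain. A pair of arrays stood apart. Every member was low (5.80 to 6.90) in liver at 4 °C and 0 h. Every member was high (9.84 to 11.47) in brain at RT and 1 h. Results resting on these are given with and without them.

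In intact tissue all 5 members were lower in liver than in heart. From heart to brain, the members of the chromosome 8 transcript differed by -1.49 and -1.57 on the log2 scale, and those of the chromosome 13 transcript by -0.09 and -0.50. This used the 33 arrays with RIN over 6, of which 13 were heart, 6 liver and 14 brain. miR-23a-3p ranged from 10.84 to 11.57 in heart (median 11.28), from 9.25 to 11.20 in brain (9.56) and from 6.81 to 9.15 in liver (8.54). Its partner miR-27a-3p ranged from 9.71 to 10.65 in heart (10.30), from 8.26 to 9.84 in brain (8.59) and from 6.11 to 8.14 in liver (7.67). For these miRNAs 13 of 14 brain arrays lay below every heart array, and the exception was the high array named above.

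The paralogues on chromosome 13 overlapped between heart and brain. miR-23b-3p ranged from 9.96 to 10.53 in heart (median 10.18), from 9.67 to 11.47 in brain (9.99) and from 6.90 to 9.01 in liver (8.66). miR-27b-3p ranged from 8.76 to 9.70 in heart (9.33), from 8.35 to 9.92 in brain (8.78) and from 5.80 to 8.30 in liver (7.66). Only 6 of 14 brain arrays lay below every heart array for either of them. miR-24-3p, which both transcripts supply, fell between: it ranged from 10.60 to 11.48 in heart (11.08), from 9.92 to 11.44 in brain (10.29) and from 6.90 to 9.13 in liver (8.57), with 12 of 14 brain arrays below all heart arrays.

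From heart to brain, limma with the slide as a random block called 4 of 5 members lower at a Benjamini-Hochberg adjusted p under 0.05 over all miRNAs, where 22% of the 815 miRNAs were called lower. The difference on the log2 scale was -1.49 ± 0.20 (SE, 33 arrays on 6 slides) for miR-23a-3p (adjusted p = 4.43e-08), -1.57 ± 0.18 for miR-27a-3p (1.33e-09), -0.71 ± 0.18 for miR-24-3p (0.000713) and -0.50 ± 0.19 for miR-27b-3p (0.021). For miR-23b-3p it was -0.09, with a 95% confidence interval from -0.47 to 0.29 (adjusted p = 0.678). With 3 other scalings miR-23b-3p was called lower too, and so 5 of 5 members: it differed by -0.78 with 75th percentile scaling over all miRNAs (limma, adjusted p = 0.000581), by -0.32 with quantile normalization (0.00106) and by -0.14 with normexp (0.0193). With these scalings 289, 301 and 262 of the 815 miRNAs in turn were called lower. Over all miRNAs the median difference with VSN was 0.44, so that the members lay on the low side of the distribution. With arrays of storage at RT alone, 2 of 5 were called lower, and miR-23b-3p turned to 0.16. Without the high brain array the differences were -0.20 for miR-23b-3p to -1.66 for miR-27a-3p, and 4 of 5 were called. With the animal as a block 4 of 5 were called as well. In these 3 settings 118, 176 and 194 of the 815 miRNAs in turn were called lower.

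From heart to liver, 5 of 5 members were called lower against 44.9% of all miRNAs. The differences were -1.80 ± 0.24 (SE) for miR-23b-3p to -2.90 ± 0.25 for miR-23a-3p. The groups did not overlap for any member, but overlap was not counted over all miRNAs, here or between heart and brain. All 5 were also called lower under each alternative setting of this comparison. The number of all miRNAs called lower ranged from 68 with normexp to 391 with the animal as a block. From liver to brain, 5 of 5 were called higher by 1.27 to 2.01, where 57.9% of all miRNAs were called higher and the median over all was 1.11. This direction depended on the scaling: with quantile normalization miR-23a-3p (-0.14), miR-27a-3p (-0.60) and miR-27b-3p (-0.41) turned negative. Without the low liver array the difference was 1.02 to 1.73 and 5 of 5 were called, where 465 of 815 miRNAs were called higher.

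Bulk tissue holds many cell types, and fewer cells of a type cannot be told apart from less RNA per cell. Of the 2 endothelial miRNAs listed (miR-126a-3p and miR-126a-5p), both were detected on every intact array, and their summed signal was 3661 to 6278 units in heart, 632 to 1904 in brain and 272 to 962 in liver. All 5 blood cell miRNAs listed were detected on every intact heart and brain array and 4 of them on every intact liver array. Their summed signal was 5300 to 34570 units in heart, 434 to 2500 in brain and 435 to 1691 in liver. Both lists were thus higher in heart than in brain or liver, and their part in the tissue differences was not tested.

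The difference between paralogues within an array removes the array's scaling and compares mature miRNAs of both transcripts between tissues. Levels of the transcripts themselves were not measured. Levels of different probes cannot be set against each other, so that the meaning lies in how a difference moves between tissues. miR-23a-3p minus miR-23b-3p averaged 1.08 ± 0.13 (SD, 13 arrays) in intact heart, -0.02 ± 0.12 (6 arrays) in liver and -0.32 ± 0.12 (14 arrays) in brain. The heart arrays lay between 0.85 and 1.30 and the brain arrays between -0.52 and -0.14, without overlap. miR-27a-3p minus miR-27b-3p averaged 0.93 ± 0.14 in heart, 0.02 ± 0.26 in liver and -0.14 ± 0.12 in brain. Again every heart array, at 0.75 or more, lay above every brain array, at 0.04 or less, and liver did not stand apart from brain.

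The 5p arms of miR-24 were set apart between tissues in the same direction as the members. miR-24-2-5p minus miR-24-1-5p averaged 1.86 ± 0.19 in heart, 0.57 ± 0.45 in liver and 0.49 ± 0.39 in brain, and the lowest heart array (1.64) lay above the highest array of either other tissue (1.26 in liver, 1.06 in brain). By limma, miR-24-2-5p was lower in brain than in heart by -1.48 ± 0.16 (SE; adjusted p = 3.18e-10), close to the values of miR-23a-3p and miR-27a-3p. miR-24-1-5p differed by -0.11 (95% confidence interval from -0.61 to 0.39, adjusted p = 0.701). Thus the 3 mature products of the chromosome 8 transcript alone differed between heart and brain by -1.48 to -1.57, and the 3 of the chromosome 13 transcript by -0.09 to -0.50. Both 5p arms were dim: miR-24-2-5p was detected on 15 of 15 heart, 16 of 16 brain and 7 of 14 liver arrays, and miR-24-1-5p on 15, 16 and 5. Of the 6 intact liver arrays, 3 detected miR-24-2-5p and 1 detected miR-24-1-5p, so that for most of these liver arrays the difference rests on signals that were not detected.

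**Figure D1:**
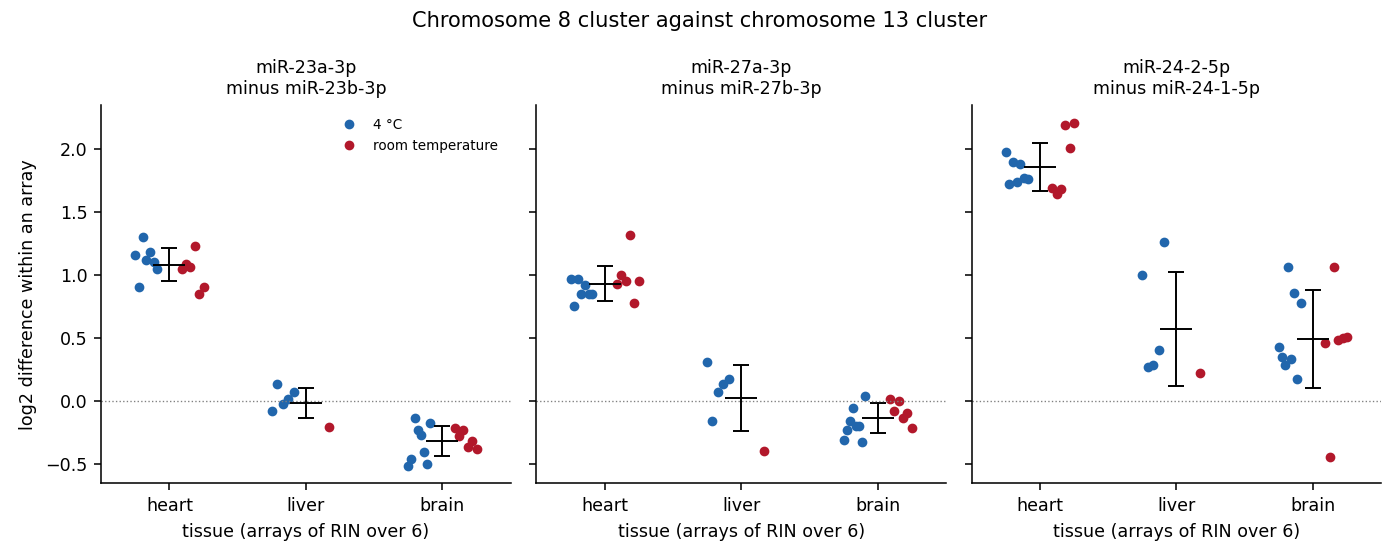
Within-array log2 differences between the chromosome 8 and chromosome 13 copies (y axis) on the 33 arrays of RIN over 6, by tissue (x axis). Each point is 1 array, blue for 4 °C and red for RT, and the black bar is the mean with its SD. In all 3 panels every heart point lies above every liver and brain point.

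Since arrays of a slide are parts of 1 organ, the tissue pattern was also tested over the 6 slide means, 2 a tissue (liver at RT had 1 array of RIN over 6). The mean of miR-23a-3p minus miR-23b-3p was 1.12 and 1.03 on the heart slides, 0.02 and -0.21 on the liver slides and -0.34 and -0.30 on the brain slides. An exact permutation test of the 3 tissues gave p = 0.0667, the smallest value that 15 partitions of 6 slides allow. For miR-27a-3p minus miR-27b-3p and for the 5p arms the exact test gave p = 0.2 each, since liver and brain means lay close together. For both member pairs and the 5p arms, brain stayed below heart with quantile normalization and with normexp, with differences of -0.62 to -1.60. The remaining scalings cancel in a within-array difference of members, so that they could not test its stability. The permutation test over slides was chosen after the data were seen.

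Each of the 2 probes of a member showed the same tissue order when taken alone. On 75th percentile scaled signals the probes of miR-23a-3p gave -1.55 and -1.53 from heart to brain, those of miR-27a-3p -1.56 and -1.66, those of miR-23b-3p -0.16 and -0.10, and those of miR-27b-3p -0.52 and -0.64. The log2 signals of the 2 probes of a member correlated with r of 0.993 to 0.999 over the 45 arrays, which share tissue and depth. How much of a signal a probe takes from the paralogue was not tested.

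During storage, the members were lost in liver at RT. In the order of the hours given above, miR-23a-3p was 8.39, 9.12, 9.10, 8.95 and 8.33 up to 12 h, then 6.62, 4.75 and 4.67 on the 3 later arrays. miR-23b-3p was 8.60, 9.20, 9.16, 8.82 and 8.37 over the same first 12 h, then 6.98, 5.18 and 3.34. Both were thus at 8.33 or higher to 12 h and lower on each array from 24 h on. On 75th percentile scaled values miR-23a-3p was already lower at each step up to 12 h, from 9.02 to 8.25, and miR-23b-3p from 9.23 to 8.30.

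miR-24-3p followed the same course, with 8.29, 9.05, 9.14, 8.87, 8.27, 6.92, 5.28 and 4.14 from 0 to 96 h. miR-27a-3p was 7.20, 7.94, 8.00, 7.67, 7.01, 5.70, 4.41 and 4.51, and miR-27b-3p 7.60, 8.23, 8.24, 8.23, 7.63, 6.07, 4.94 and 4.90. From 48 h to 96 h the miR-27 miRNAs and miR-23a-3p moved by -0.08 to 0.10, miR-23b-3p by -1.84 and miR-24-3p by -1.13. All 5 members were still detected at 96 h, at signals of 23.5 to 71.9 units.

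**Figure D2:**
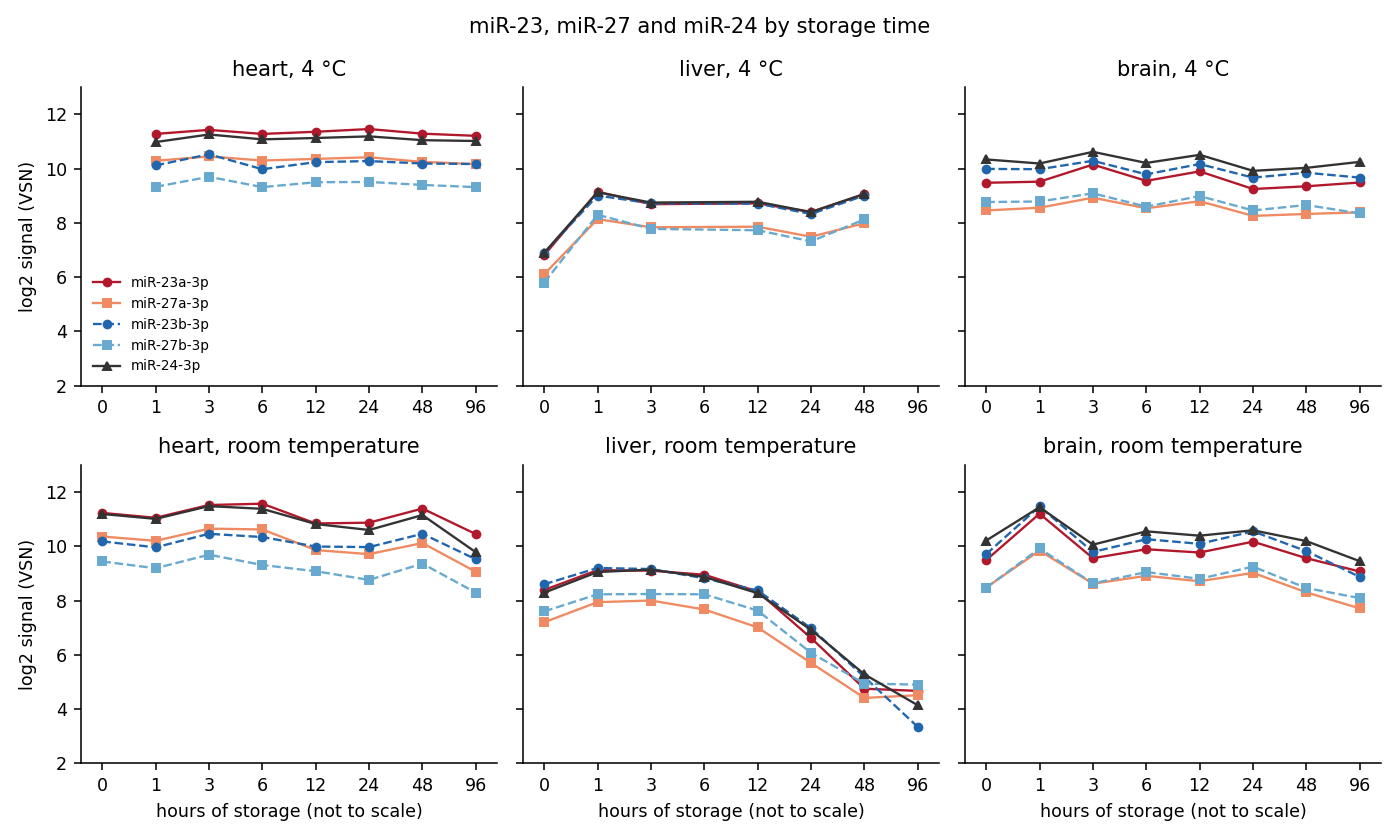
Log2 signal (VSN, y axis) of the 5 members over hours of storage (x axis, not to scale), by tissue and temperature, 1 array per point. Red and orange lines are the chromosome 8 members, dashed blue lines the chromosome 13 members and the black line is miR-24-3p. In liver at RT every member is lower on each array from 24 h on than on any array up to 12 h.

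Against the mean of the arrays of 0 to 12 h, miR-23a-3p was 4.48-fold lower after 24 h of storage, 16.3-fold after 48 h and 17.3-fold after 96 h. At 96 h miR-23b-3p was 44.9-fold lower, miR-24-3p 23.9-fold, miR-27b-3p 8.48-fold and miR-27a-3p 8.32-fold. There is 1 array at each time, so that these folds have no error of their own, and the SD over the 5 early arrays was 0.34 to 0.44 on the log2 scale. Over the 180 miRNAs detected on all arrays, the median change against the early arrays on the 3 late arrays was -0.67, -1.77 and -1.69 in turn. The members differed by -1.80 to -2.16, -3.04 to -4.03 and -3.06 to -5.49. Of the 180 miRNAs, 57, 69 and 78 in turn lay below the member that had fallen least. With no scaling between arrays the members were also lower on each, by -0.75 to -1.11, -2.24 to -3.23 and -1.60 to -4.08.

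The slope of time at RT minus that at 4 °C was tested in each tissue by limma. In liver it was -1.66 ± 0.37 log2 units per 24 h (SE, adjusted p = 0.000789) for miR-23a-3p, -1.25 ± 0.32 (0.00295) for miR-27a-3p, -1.91 ± 0.31 (2.61e-05) for miR-23b-3p, -1.33 ± 0.34 (0.00261) for miR-27b-3p and -1.69 ± 0.31 (0.000106) for miR-24-3p. Hence 5 of 5 members were called lower, against 24.4% of all miRNAs, whose median was -0.23. On the liver slide at RT alone the slopes were -0.92 to -1.51 log2 units per 24 h and all 5 were called, where 34.1% of all miRNAs were called lower. Without the 3 arrays of 24, 48 and 96 h at RT the differences were -0.87 to -1.48 and 0 of 5 were called. There 80 of 815 miRNAs were called lower and the median of all was 0.68. When any 1 of these 3 arrays, or the low array of the cooled liver, was left out, 5 of 5 were called. Then 145 to 226 of 815 miRNAs were called lower.

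**Figure D3:**
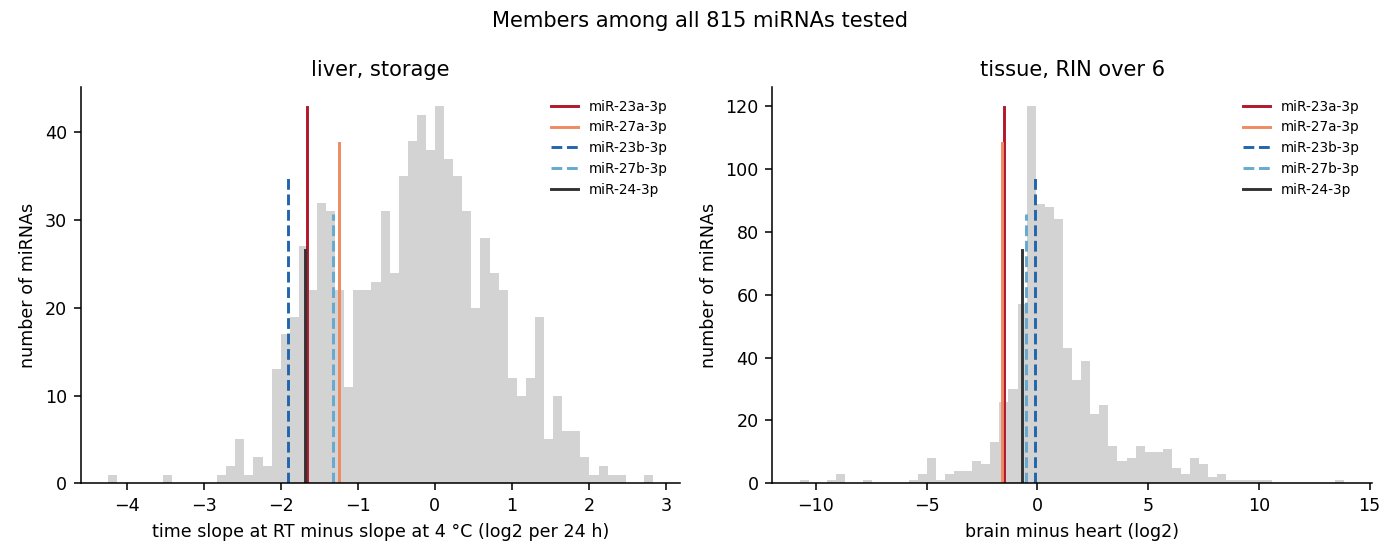
Number of miRNAs (y axis) by the difference of the time slopes in liver (left, log2 per 24 h) and by the difference between brain and heart (right, log2), over the 815 miRNAs tested, with the members as vertical lines whose heights only keep them apart. In liver the members lie between -1.91 and -1.25, and on the right the chromosome 8 members lie apart from miR-23b-3p at -0.09.

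Cell type markers moved on the same liver arrays. From the arrays of 0 to 12 h at RT to those of 24 to 96 h, the summed signal of the 2 endothelial miRNAs went from 512 to 1903 units to 81.2 to 526.1 units, that of the 5 blood cell miRNAs from 435 to 2980 to 183 to 644, and that of hepatocyte miR-122-5p from 13570 to 48930 to 4454 to 16280. These sums are in signal units, while the member folds above are on VSN values. On VSN values miR-122-5p was 14.72 to 15.47 up to 12 h, then 13.13, 11.49 and 11.19. The mean of the endothelial miRNAs was 7.82 to 8.87 up to 12 h and 3.43 at 96 h. That of the blood cell miRNAs was 6.30 to 7.71 and then 3.04. The part of these markers in the decline of the members was not tested.

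In heart and brain the members fell less than in liver over the same hours. Whether the time slopes differ between tissues was not tested. The time slope at RT differed from that at 4 °C by -0.11 to -0.30 log2 units per 24 h in heart and by -0.12 to -0.26 in brain, and limma called 0 of 5 members in either tissue, with 0 of 5 at an unadjusted p under 0.05 as well. Of all miRNAs 2.82% were called lower in heart and 0.123% in brain. With 75th percentile scaling over the miRNAs detected on all arrays, 3 of 5 members were called in each of these tissues. Under it 56 of 815 miRNAs were called lower in heart and 60 of 815 in brain. On the slides at RT alone, miR-24-3p fell in heart by 0.32 ± 0.13 per 24 h (SE, limma, adjusted p = 0.041; 18.8% of all miRNAs called lower) and miR-23b-3p fell in brain by 0.35 ± 0.13 (adjusted p = 0.0313; 17.3%).

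At 96 h at RT the heart array had a RIN of 2.2, and its members lay at 10.45 for miR-23a-3p, 9.06 for miR-27a-3p, 9.52 for miR-23b-3p, 8.29 for miR-27b-3p and 9.78 for miR-24-3p. Against the arrays of 0 to 12 h these were differences of -0.79, -1.28, -0.66, -1.06 and -1.39, so that the miR-23 miRNAs had moved least and miR-24-3p most. Over the 180 miRNAs detected on all arrays the median difference was -0.66, the same as for miR-23b-3p. The brain array of 96 h, with a RIN of 3.3, differed from the early arrays by -0.91 for miR-23a-3p, -1.21 for miR-27a-3p, -1.40 for miR-23b-3p, -0.89 for miR-27b-3p and -1.08 for miR-24-3p. Here the median over the 180 miRNAs was -0.56. Liver at RT had passed a RIN of 2.8 by 6 h with its members at 7.67 to 8.95. With no scaling between arrays the heart and brain differences at 96 h were between -0.18 and 0.55, so that they depend on the normalization. The unscaled median over the 180 miRNAs was 0.57 in heart and 0.73 in brain. With 75th percentile scaling over the miRNAs detected on all arrays, the members differed at 96 h by -0.95 to -1.69 in heart and by -0.96 to -1.47 in brain. The median over the 180 miRNAs was then -0.93 and -0.63.

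At 4 °C the time slope of 0 of 5 members passed the limma test on any of the 3 slides, with 0 of 5 at an unadjusted p under 0.05 on each, where 0% of all miRNAs were called in heart and in brain and 2.94% in liver. In heart the range over the slide was 11.21 to 11.46 for miR-23a-3p and 9.98 to 10.53 for miR-23b-3p, and in brain 9.25 to 10.15 and 9.67 to 10.29. In liver at 4 °C the array of 48 h, with a RIN of 3.4, had 9.06 for miR-23a-3p and 9.01 for miR-23b-3p, within the range of the arrays of 1 to 24 h (8.40 to 9.15 and 8.33 to 9.01). On 75th percentile scaled values it had 8.69 and 8.63, below those arrays (8.81 to 9.27 and 8.74 to 9.14).

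Pooled over tissues, Pearson's r with hours at RT (24 arrays) was -0.38 for miR-23a-3p, -0.40 for miR-27a-3p, -0.49 for miR-23b-3p, -0.47 for miR-27b-3p and -0.44 for miR-24-3p. Of these, miR-23b-3p (adjusted p = 0.0315) and miR-27b-3p (0.0409) were called by the Pearson test over all 815 miRNAs, 2 of 5 against 17.5% of all miRNAs called lower. With the slide as a block limma called 5 of 5 lower, with slopes of -0.47 to -0.66 log2 units per 24 h. It called 304 of the 815 miRNAs lower. Within tissues r was -0.57 to -0.82 in heart, -0.87 to -0.98 in liver and -0.53 to -0.73 in brain (8 arrays each). Spearman's rho over the 24 arrays was -0.23 to -0.34 and called 0 of 5, where 62 of 815 miRNAs were called lower. Without the 2 arrays farthest from the median time, r was -0.25 to -0.32. At 4 °C (21 arrays) r was 0.11 to 0.17 and 0 of 5 were called by either test, where 4.91% of all miRNAs were called higher and 0 of 5 members had an unadjusted p under 0.05. The tissues form separate clusters of values, which the pooled r ignores.

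With the RIN, Pearson's r over the 45 arrays was 0.55 for miR-23a-3p, 0.59 for miR-27a-3p, 0.58 for miR-23b-3p, 0.56 for miR-27b-3p and 0.61 for miR-24-3p, and Spearman's rho was 0.45, 0.52, 0.42, 0.51 and 0.48. The 5 of 5 members were called higher with RIN (adjusted p = 3.37e-05 to 0.000263), against 33.6% of all miRNAs. With a permutation of the 45 RIN values p was 3e-05 to 0.00025 for r and 0.00036 to 0.00457 for rho. Neither this permutation nor the Pearson test allows for tissue, slide or animal. When the 2 arrays with the most distant RIN were dropped, r was 0.52 to 0.59. A RIN of 6 or lower was found on 8 of 14 liver arrays, 2 of 15 heart arrays and 2 of 16 brain arrays. Liver was also the tissue where the members were lowest. Within tissues r was 0.42 to 0.73 in heart (15 arrays), 0.28 to 0.46 in liver (14) and 0.26 to 0.49 in brain (16).

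Within slides, where tissue and animal are held constant, the members were 0.13 to 0.17 log2 units higher per RIN unit, and limma called miR-27a-3p (0.17 ± 0.07, SE, adjusted p = 0.0225) as the 1 of 5 members, where 25.9% of all miRNAs were called higher. The slopes in heart (0.05 to 0.15), liver (0.12 to 0.25) and brain (0.16 to 0.24) were not shown to differ: an F test of the 3 tissues called 0 of 5 members, with 0 of 5 at an unadjusted p under 0.05, against 2.21% of all miRNAs. Without the arrays of RIN under 3, however, the F test called 4 of 5 members, where 35.1% of all miRNAs were called. The within-slide call depended on the scaling: 5 of 5 were called with 75th percentile scaling, with quantile normalization and with normexp. Of all 815 miRNAs, 301 (75th percentile over detected miRNAs), 357 (over all), 328 (quantile) and 659 (normexp) were called higher. With no scaling 0 of 5 were called and the slopes turned negative, where 460 of 815 miRNAs were called lower. Without the low liver array, whose RIN was 9.1, 5 of 5 were called, with 279 of 815 miRNAs called higher. Without the 3 late liver arrays at RT the slopes were 0.02 to 0.08 and 0 of 5 were called, with 174 of 815 miRNAs called higher. Among arrays of RIN over 6 the slopes turned to -0.23 to -0.36, with 0 of 5 called, where 28 of 815 miRNAs were called lower.

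**Figure D4:**
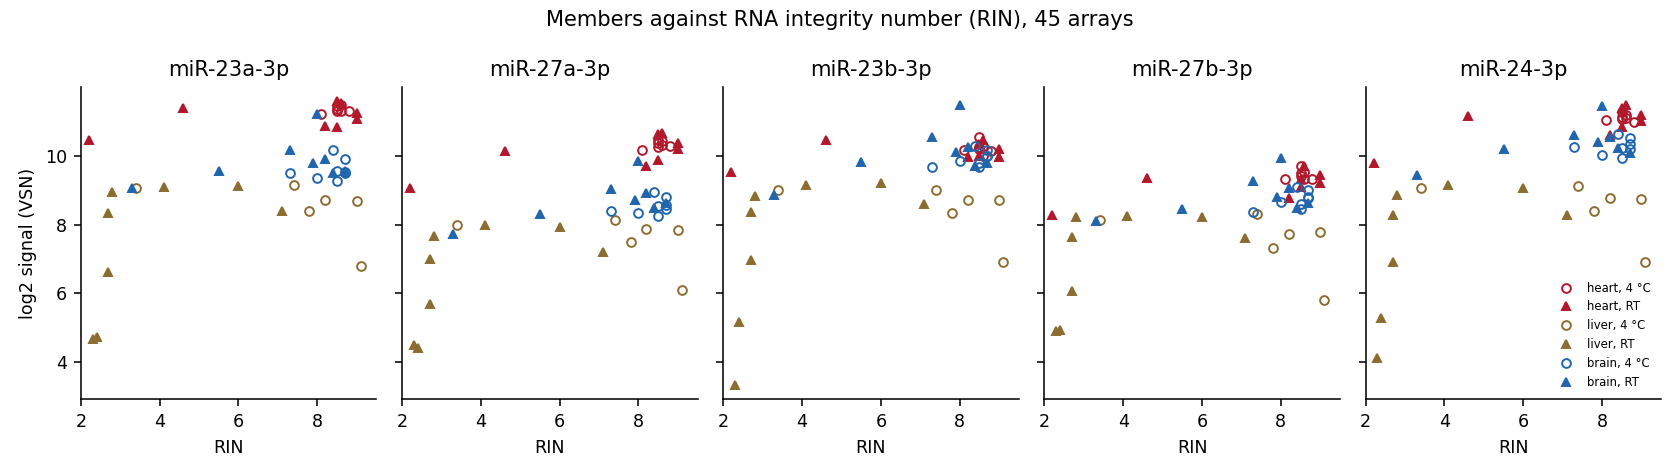
Log2 signal (VSN, y axis) of each member against the RIN (x axis) on the 45 arrays, coloured by tissue, open circles for 4 °C and filled triangles for RT. Liver arrays of RIN under 3 spread from 3.34 to 8.95.

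RIN and member levels came apart in liver at RT between 12 h and 24 h. The arrays of 12 h and 24 h had the same RIN of 2.7, yet every member was lower at 24 h, by -1.72 for miR-23a-3p, -1.31 for miR-27a-3p, -1.39 for miR-23b-3p, -1.56 for miR-27b-3p and -1.35 for miR-24-3p. With no scaling between arrays these steps were -1.03 to -1.43. Over the miRNAs detected on all arrays the median step was -0.89, and -0.61 with no scaling. The RIN had dropped from 7.1 at 0 h to 4.1 at 3 h before that, while the members stood at 8.00 to 9.16 at 3 h. On 75th percentile scaled values the miR-23 miRNAs were already lower at each step up to 12 h, so that this earlier part depended on the scaling. The comparison of the 8 liver arrays of RIN 6 or lower with the 6 of RIN over 6 holds arrays of both kinds below the RIN limit: the mean differences were -0.37 to -0.87, the exact Wilcoxon-Mann-Whitney test called 0 of 5 members, with 0 of 5 at an unadjusted p under 0.05, and 2.94% of all miRNAs were called lower. This depended on the scaling. With 75th percentile scaling over the miRNAs detected on all arrays 4 members were called lower, with normexp 5 and with quantile normalization 2. Of all 815 miRNAs, 87, 599 and 36 in turn were called lower. With no scaling the differences turned to 0.12 to 0.63.

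Whether members decay alike, within a cluster or between paralogues, was tested on the slope of 8 within-array differences on RIN. The RIN values were permuted within slides. Over all tissues 1 of 8 passed: miR-27a-3p minus miR-27b-3p rose by 0.04 ± 0.01 log2 units per RIN unit (SE, permutation p = 0.00156, adjusted over the 8 p = 0.0125), and the slope was 0.04 to 0.05 in each of the 3 tissues. This call was lost without liver (adjusted p = 0.0794), without brain (0.093), with quantile normalization (0.202) and with RIN over 6 only (0.596), where the slope was still positive (0.04 to 0.06). The 6 differences between members of a cluster had slopes of -0.04 to 0.04 per RIN unit (permutation test, adjusted p = 0.313 to 0.987). Those with miR-24-3p mix both transcripts, since its signal cannot be assigned to either. Only miR-23a-3p minus miR-27a-3p (-0.03, adjusted p = 0.37) and miR-23b-3p minus miR-27b-3p (0.04, 0.37) compare members of a single transcript. Without the 3 late liver arrays at RT, 3 of the 6 passed the permutation test: miR-23a-3p minus miR-27a-3p (-0.06, adjusted p = 8e-05), miR-23a-3p minus miR-24-3p (-0.04, 0.038) and miR-27a-3p minus miR-24-3p (0.02, 0.038). Of these, only miR-23a-3p minus miR-27a-3p lies within a single transcript. Among arrays of RIN over 6, miR-23a-3p minus miR-27a-3p passed (-0.13, adjusted p = 0.025). miR-23a-3p minus miR-23b-3p had a slope of -0.03 ± 0.02 (adjusted p = 0.37).

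Within the chromosome 8 transcript, miR-23a-3p minus miR-27a-3p had a slope of -0.08 ± 0.01 (SE) per RIN unit in heart and -0.06 ± 0.02 in brain, so that miR-27a-3p was lower against miR-23a-3p where the RIN was low, and 0.03 ± 0.05 in liver. In heart this difference was 0.86 to 1.16 on the 13 intact arrays and 1.27 and 1.39 on the 2 arrays of RIN 6 or lower, and in brain 0.93 to 1.36 on 14 arrays and 1.26 and 1.37 on 2. Without liver the slope over both tissues was -0.07 (permutation test, adjusted p = 0.00072). Whether the slopes differ between tissues was not tested.

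The differences between paralogues kept their tissue order in degraded RNA of heart and brain. On the 2 heart arrays of RIN 6 or lower miR-23a-3p minus miR-23b-3p was 0.93 and 0.94, and on the 2 brain arrays -0.27 and 0.20. miR-27a-3p minus miR-27b-3p was 0.76 and 0.77 on these heart arrays and -0.38 and -0.16 on the brain arrays. In degraded liver the first difference reached 1.32 on the array of 96 h at RT, where miR-23b-3p had its lowest signal of 23.5 units.

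Centred on each slide, the members moved together over the 45 arrays. The pair miR-27a-3p and miR-27b-3p had r = 0.98 and each was the other's best match among 814 miRNAs. Within the transcripts, r was 0.98 for miR-23a-3p with miR-27a-3p and 0.94 for miR-23b-3p with miR-27b-3p. Without liver these were 0.94 and 0.93 (31 arrays), and 0.95 for the miR-27 paralogues. For miR-24-3p, miR-24-2-5p had r = 0.98 and miR-24-1-5p 0.94. These arrays share depth and scaling, and 104 of 808 other miRNAs had an r over 0.9 with the mean of the members. The 5 most alike were miR-151-5p (r = 0.99), miR-30e-3p (0.99), miR-30a-3p (0.99), let-7g-5p (0.99) and miR-98-5p (0.98), all of 45 arrays.

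The other arms of the miR-23 and miR-27 hairpins and the miRNAs of the opposite strand were barely seen. miR-23a-5p was detected on 3 of 45 arrays, and miR-23b-5p, miR-27a-5p, miR-27b-5p, miR-3074-5p, miR-3074-1-3p and miR-3074-2-3p on 0 of 45. Of the 9 miRNAs listed, miR-24-2-5p (38 of 45 arrays) and miR-24-1-5p (36 of 45) passed the detection filter. In liver at RT each was detected on 3 of 8 arrays and both signals were below 2 units from 24 h on, so that no size is given for their decline.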

How the data were processed

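Total RNA was hybridised to 1-colour Agilent mouse miRNA arrays (Release 21.0), 46 in all. The authors deposited Feature Extraction (10.10.1.1) scanner output, with background-subtracted intensity values, and a table of log2 values after VSN. On each array the deposited log2 values followed an asinh curve of the signal within 1.15e-05. As in the study, 1 cooled heart sample (0 h) was excluded, leaving 45. The methods give that organs of a temperature came from 1 animal. Liver at 6 h and 96 h at 4 °C was not analysed here. Hours are those of the labels (the methods give another value for 12 h).

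miRNAs detected on at least 5 arrays were kept. Pearson's r, limma 3.58.1 in R 4.3.3 (with duplicateCorrelation, consensus correlation 0.0203, for tissues) and the exact Wilcoxon-Mann-Whitney test were run on these 815 miRNAs with Benjamini-Hochberg adjustment. The functions were tested on simulated data. Within-array differences used 100000 permutations, adjusted over the 8. Named miRNAs were the members, the listed arms and opposite-strand miRNAs, and the 5 most alike. Alternative scalings floored signals at 1 unit, and normexp used an offset of 50 on median spot signals. Members and lists were chosen with earlier results of these data known. The number of arrays limits the precision.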

Additional observations from a re-analysis of the deposited data

Results flagged for a closer look

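On the slide of liver at 4 °C (6 arrays), the array of 0 h lay far below the others for 4 members. miR-23a-3p was 6.81 with the next array at 8.40, miR-27a-3p 6.11 with 7.49, miR-23b-3p 6.90 with 8.33 and miR-24-3p 6.90 with 8.40. These 4 came from 30 sets of a member and a slide, of which chance sets apart about 1 in 20. All 4 lie on the same array and the members moved together, so that the sets are not independent and this rate cannot be applied. Its RIN of 9.1 was the highest of the liver arrays, it detected 268 miRNAs, the fewest of the 45 arrays, and hepatocyte miR-122-5p (12.67), the 2 endothelial miRNAs (mean 5.89) and the 5 blood cell miRNAs (mean 5.58) were low on it as well. On the other arrays of this slide miR-122-5p was 14.46 to 15.36.

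The time slope at RT differed from that at 4 °C in liver for every member, as tested by limma: -1.66 log2 units per 24 h for miR-23a-3p, -1.91 for miR-23b-3p, -1.69 for miR-24-3p, -1.25 for miR-27a-3p and -1.33 for miR-27b-3p. Each temperature is 1 slide.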

How the results depend on the processing

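With 1 array per time point the time courses have no replicate at a time, and 2 slides a tissue carry the tissue comparisons. The alternatives that leave out single liver or brain arrays were chosen after seeing the data. Organs of the same temperature share an animal, so the tissue contrasts were refitted with the animal as a replicate block, also chosen after seeing the data: 4 members were called from heart to brain (-0.09 to -1.57), 5 from heart to liver (-1.76 to -2.86) and 5 from liver to brain (1.23 to 1.97), as without it, and the counts were the same with the animal and hour as the block. Relative to VSN, no scaling moved the median over all miRNAs of the slope at RT minus that at 4 °C in heart from 0.06 to 0.35 log2 units per 24 h. The cause of the changes below was not tested. The number of all miRNAs called also moved with the setting. With normexp, for example, 599 of 815 were called lower in degraded liver, and 659 of 815 higher with RIN within slides. Of the counts of members called under an alternative, 143 stayed within 1.5 times the reported count and 48 did not.

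For RIN over all arrays, 5 members were called, but 0 with RIN over 6 only, 2 without liver and 2 without the 3 late liver arrays at RT (24 h or longer). Within slides 1 was called, 5 with either 75th percentile scaling, quantile normalization, normexp, without liver or without the liver array of 0 h at 4 °C, and 0 with Bonferroni, RIN over 6 only, the heart array of 0 h included, no scaling, without brain, without heart or without the 3 late liver arrays. The slopes per RIN unit turned to -0.36, -0.34, -0.31, -0.23 and -0.29 with RIN over 6 only, and to -0.0702, -0.0400, -0.0398, -0.0404 and -0.0849 with no scaling (miR-23a-3p, miR-23b-3p, miR-24-3p, miR-27a-3p, miR-27b-3p). The slopes of the tissues differed for 4 members without the arrays of RIN under 3, against 0.

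For hours at RT, 2 members were called, but 5 with 75th percentile scaling over all miRNAs, normexp or the slide as a block, 4 with 75th percentile scaling over detected miRNAs or quantile normalization, 1 without the brain array of 1 h, and 0 with Bonferroni, Spearman's rho, no scaling, time as log2 hours, without the 96 h arrays or without the 3 late liver arrays. At 4 °C no alternative called a member, and signs turned with the slide as a block (slopes of -0.00388 for miR-23a-3p, -0.0103 for miR-23b-3p, -0.0253 for miR-27a-3p and -0.0316 for miR-27b-3p) and for r of miR-27b-3p with 75th percentile scaling over detected miRNAs (-0.00242), normexp (-0.0321), quantile normalization (-0.0557) and without the liver array of 0 h (-0.0210).

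The time slopes of RT against 4 °C called 5 members in liver, but 2 with Bonferroni, 3 with no scaling and 0 without the 3 late arrays. In heart 0 were called, but 3 with 75th percentile scaling over detected miRNAs, 2 with normexp and 1 with quantile normalization or 75th percentile scaling over all. In brain 0 were called, but 3 with 75th percentile scaling over detected miRNAs and 1 with normexp. With no scaling the differences turned to 0.17, 0.19, 0.00837, 0.0422 and 0.10 in heart and 0.11, 0.0224, 0.0550, 0.0348 and 0.16 in brain, and without the 48 h and 96 h arrays to 0.31, 0.46, 0.29, 0.25 and 0.48 in brain (order as above).

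From heart to brain 4 members were called, and 5 with 75th percentile scaling over all, quantile normalization or normexp, but 2 with Bonferroni, the heart array of 0 h included or RT only, and miR-23b-3p turned to 0.14 with that array, 0.0448 with no scaling and 0.16 with RT only. From liver to brain 5 were called, but 2 higher and 2 lower with quantile normalization (miR-23a-3p -0.14, miR-27a-3p -0.60, miR-27b-3p -0.41) and 2 with 75th percentile scaling over all. In degraded liver 0 were called, but 4 with 75th percentile scaling over detected miRNAs, 5 with normexp and 2 with quantile normalization, and with no scaling the differences turned to 0.21, 0.12, 0.21, 0.21 and 0.63, and to 0.00282 for miR-27b-3p by limma with the slide as a block.

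Of the 8 within-array slopes 1 passed, but 0 with quantile normalization or without brain and 4 without the 3 late liver arrays. miR-27a-3p minus miR-24-3p turned to 0.0269 with quantile normalization, 0.0041 with normexp, 0.0788 with RIN over 6, 0.0157 without liver, 0.0187 without the 96 h liver array and 0.0231 without the 3 late liver arrays. miR-23b-3p minus miR-24-3p turned to 0.0283 with quantile normalization and 0.0596 without heart, miR-23b-3p minus miR-27b-3p to -0.0479 with RIN over 6 and -0.0134 without liver, and miR-27b-3p minus miR-24-3p to 0.0225 with RIN over 6.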
